A study of Mus musculus with 30 samples.

Results

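The 46 genes described here encode the DNA replication machinery that cells build up between early G1 and S phase, and they were taken by symbol from a list of replication genes. All 46 were found among the 55401 genes of the 4 count tables of nuclear RNA-seq from mouse embryonic stem (ES) cells. By role they were divided into origin recognition and licensing (8 genes), the MCM2-7 helicase (6), helicase activation (6), DNA polymerases and primase (6), the sliding clamp and its loader (6), RPA and lagging-strand enzymes (5), deoxynucleotide supply (3), inheritance of histones and DNA methylation (5) and the regulator E2f1 (1). The rule that names the members uses their known function and no value of these tables. The list was nevertheless chosen with earlier results of these data known. CPM values below are exon counts scaled to the library's exon total after TMM scaling. They are given for replicate 1 and then replicate 2.

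The 30 libraries formed 15 groups of 2. The parental line CGR8 was measured untreated and after 4 h of the auxin indole-3-acetic acid (IAA, 500 µM). SYAT cells are a homozygous CGR8 clone in which both Srcap alleles carry YPet-AID and which expresses the OsTir1 receptor from a lentiviral EF1a promoter, so that IAA degrades SRCAP, the catalytic subunit of the complex that exchanges H2A for H2A.Z. SYAT controls were kept in the Tir1 inhibitor auxinole, and treated SYAT cells were taken at 2 h, 4 h, 6 h and 8 h of the same IAA dose. Early G1 (EG1) and late G1 (LG1) cells were sorted by DNA content and a mitotic-degron mCherry reporter from SYAT cells kept as controls or given IAA for 1 h. In the last table, SYAT cells that also carried wild-type SRCAP (wtSRCAP) or catalytically dead SRCAP (cdSRCAP), each fused to mCherry, each from a single clone and both sorted for like mCherry levels, received 1 µg/mL doxycycline for 24 h and were kept as controls or given IAA for 4 h. Since each clone is a line of its own, a difference between wtSRCAP and cdSRCAP cells cannot be told apart from a difference between clones.

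Replication begins when the origin recognition complex, Cdc6 and Cdt1 load the MCM2-7 helicase onto DNA in G1. Cdc45, the GINS complex and Mcm10 then turn the loaded helicase into a moving fork in S phase, where primase and the polymerases copy DNA on the Pcna clamp. Many of these genes are known targets of E2F transcription factors, which are held back by the retinoblastoma family until cyclin-dependent kinases act in late G1. Mouse ES cells are known for a short G1 and for high E2F activity throughout the cycle.

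The promoter windows of 6 members that hold a word of the E2F site are printed first, to show where such words lie. They were picked for holding one, from 5 genes that were higher in LG1 in at least 1 comparison and from Gins3, the lowest member in most comparisons with IAA. The windows of Mcm10, Cdc45, Rrm2, Chaf1b, Pcna and E2f1, which were also higher in both LG1 comparisons, hold none and are not shown. Each window runs from 250 bases before to 50 after a start site in RefSeq (GRCm38.p6), 5′ to 3′ on the gene's strand. Capitals mark the words TTTGGCGC, TTTGGCGG, TTTCCCGC and TTTCGCGC, forms of the E2F site, read on both strands, so that hits can overlap. The Cdc6 window lies at chr11:98907901-98908200 (plus strand), that of Uhrf1 at chr17:56304063-56304362 (plus strand), and that of Chaf1a at chr17:56040166-56040465 (plus strand). The window of Pola1 lies at chrX:93632106-93632405 (minus strand), that of Mcm5 at chr8:75109259-75109558 (plus strand) and that of Gins3 at chr8:95633309-95633608 (plus strand).
Cdc6: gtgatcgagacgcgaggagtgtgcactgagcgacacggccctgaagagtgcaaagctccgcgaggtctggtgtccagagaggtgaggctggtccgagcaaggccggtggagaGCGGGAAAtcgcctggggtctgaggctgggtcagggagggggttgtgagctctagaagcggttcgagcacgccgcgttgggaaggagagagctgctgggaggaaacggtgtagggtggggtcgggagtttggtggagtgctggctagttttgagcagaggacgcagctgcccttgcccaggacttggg
Uhrf1: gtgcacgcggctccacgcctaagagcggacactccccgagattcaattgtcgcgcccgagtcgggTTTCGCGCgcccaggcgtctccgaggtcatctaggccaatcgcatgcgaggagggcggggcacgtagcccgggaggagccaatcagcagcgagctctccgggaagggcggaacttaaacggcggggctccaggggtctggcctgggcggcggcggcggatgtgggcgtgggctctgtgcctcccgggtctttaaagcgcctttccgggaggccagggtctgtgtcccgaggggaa
Chaf1a: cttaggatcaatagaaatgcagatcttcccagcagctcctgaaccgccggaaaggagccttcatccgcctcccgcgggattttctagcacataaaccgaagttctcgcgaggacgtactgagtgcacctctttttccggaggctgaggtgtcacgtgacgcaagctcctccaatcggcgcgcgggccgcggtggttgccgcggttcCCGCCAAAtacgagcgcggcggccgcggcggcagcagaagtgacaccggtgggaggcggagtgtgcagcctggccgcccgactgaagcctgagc
Pola1: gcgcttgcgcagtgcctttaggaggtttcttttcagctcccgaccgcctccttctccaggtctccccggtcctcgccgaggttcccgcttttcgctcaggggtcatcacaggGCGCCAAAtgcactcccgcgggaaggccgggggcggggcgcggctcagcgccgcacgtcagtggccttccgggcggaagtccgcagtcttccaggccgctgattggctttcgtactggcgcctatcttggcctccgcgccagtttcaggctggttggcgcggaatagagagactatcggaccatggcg
Mcm5: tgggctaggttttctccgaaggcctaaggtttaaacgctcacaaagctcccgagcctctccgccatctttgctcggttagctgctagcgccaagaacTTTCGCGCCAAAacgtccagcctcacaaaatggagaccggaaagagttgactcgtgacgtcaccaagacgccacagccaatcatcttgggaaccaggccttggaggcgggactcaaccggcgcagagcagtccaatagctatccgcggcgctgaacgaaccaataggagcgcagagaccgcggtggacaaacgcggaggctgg
Gins3: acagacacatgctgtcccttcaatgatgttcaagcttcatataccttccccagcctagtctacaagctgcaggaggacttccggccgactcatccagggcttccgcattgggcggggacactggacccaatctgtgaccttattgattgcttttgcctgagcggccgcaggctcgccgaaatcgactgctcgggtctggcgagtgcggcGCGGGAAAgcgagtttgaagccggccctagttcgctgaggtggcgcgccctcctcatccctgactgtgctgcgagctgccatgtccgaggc
Counted from the start site, the word begins at base -138 in Cdc6, -185 in Uhrf1, -44 in Chaf1a, -138 in Pola1 and -41 in Gins3, while the overlapping hits of Mcm5 begin at -153 and -149.

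RefSeq windows were at hand for 39 of the 46 members (49 windows), and 19 of these members (48.7%) held at least 1 of the words. Over all 32851 windows of the same length the share was 2.37%, and over all 27025 genes with a window it was 2.70%. GC content also differed, with a median of 61.3% in member windows and 52.7% in all windows, and its part in the share was not tested. A word in a window is a description of the letters and not a measured binding site. Of the 21 members past an adjusted p of 0.05 in both LG1 comparisons below, 19 had a window and 11 of these held a word, and of the 17 members past it in neither, 15 had a window and 7 held a word. Of the 11 members past the fold rule in either comparison, all had a window and 5 held a word.

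Exon totals were lowest in wtSRCAP and cdSRCAP libraries (12236493 to 26369773 counts) and highest in CGR8 (45617992 to 60214521). Time course libraries had 17540823 to 22873893, EG1 libraries 20439335 to 26672402 and LG1 libraries 19740778 to 24382959. All 12 ES cell markers were detected in every library, among them Pou5f1 at 317 to 1039.8 CPM. Of the 10 fibroblast markers Fn1 was high (687 to 2642 CPM), Col1a1 ran from 1.36 to 31.6, Thy1 from 0.906 to 20.3 and Pdgfrb from 0.754 to 5.28 CPM, and the other 6 reached at most 2.76, with Postn at 0 in all libraries. The 10 endoderm markers summed to at most 31.5 CPM, and the 10 mesoderm and ectoderm markers summed to 49.6 to 398 CPM, of which Nes gave up to 377. Srcap mRNA ran from 21.3 to 74.5 CPM and was not lower after IAA in SYAT cells (log2 fold change 0.15 ± 0.17 (SE) at 4 h). Degradation acts on the protein, so the mRNA does not check it.

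Some libraries stood apart, in the members and in other genes. The CPM of the 46 members summed to 4659 to 6614 in the 4 sorted libraries numbered 1 and to 6879 to 9053 in the 4 numbered 2. In wtSRCAP and cdSRCAP cells the sums were 5986 to 7177 for number 1 and 8567 to 9835 for number 2. Within each table the 2 numbers did not overlap in this sum, and same-numbered libraries deviated together, so fits with the replicate number as a block are given beside the fits without it. The summed CPM of 20 mitotic genes in control EG1 also differed, being 1788 in one library and 2667 in the other. In the time course, replicate 2 at 6 h had the highest sum (8770.1, against 6884 to 7860.3 in the other 9). For 6 h the median and the values of Fen1 and Gins3 are given with and without it.

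Per length, Mcm5 and Mcm3, subunits of the helicase, had the highest levels. In control SYAT cells, Mcm5 had 161 ± 14.9 CPM per kb of exon (SD, n = 2) and Mcm3 125 ± 4.47, and the libraries of these 2 genes did not overlap those of any lower gene. Pcna, the sliding clamp, followed at 108 ± 8.99, Rrm2, a subunit of ribonucleotide reductase, at 106 ± 3.94 and Uhrf1, which guides maintenance DNA methylation, at 101 ± 12.2, and the libraries of these 3 neighbours overlapped. The licensing factor Cdt1 stood at 80.0 ± 2.38, above its partner Cdc6 at 21.4 ± 1.04 and the origin subunit Orc1 at 19.7 ± 2.65. The annotated exon length was 3140 bases for Cdt1, 5229 for Cdc6 and 3479 for Orc1. Part of the gap to Cdc6 is thus one of length. The fork factor Cdc45 had 9.92 ± 0.0837, the leading-strand polymerase Pole 13.5 ± 0.882, the histone mRNA binding protein Slbp 12.7 ± 0.384 and E2f1 9.09 ± 0.595 CPM per kb. At the low end were Fen1, the flap endonuclease, at 4.98 ± 0.0763, Prim2, a primase subunit, at 4.47 ± 0.454 and Orc4 at 3.77 ± 0.499. In 25 of the 45 steps of this order the libraries of the neighbours overlapped. An antisense gene overlaps 18 members and any gene 25, among them Mcm7, Fen1, Gins2, Orc4, Cdc45 and Rfc4, and the strand setting of the counting is not given in the sources used here, so the levels of these are uncertain.

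**Figure D1:**
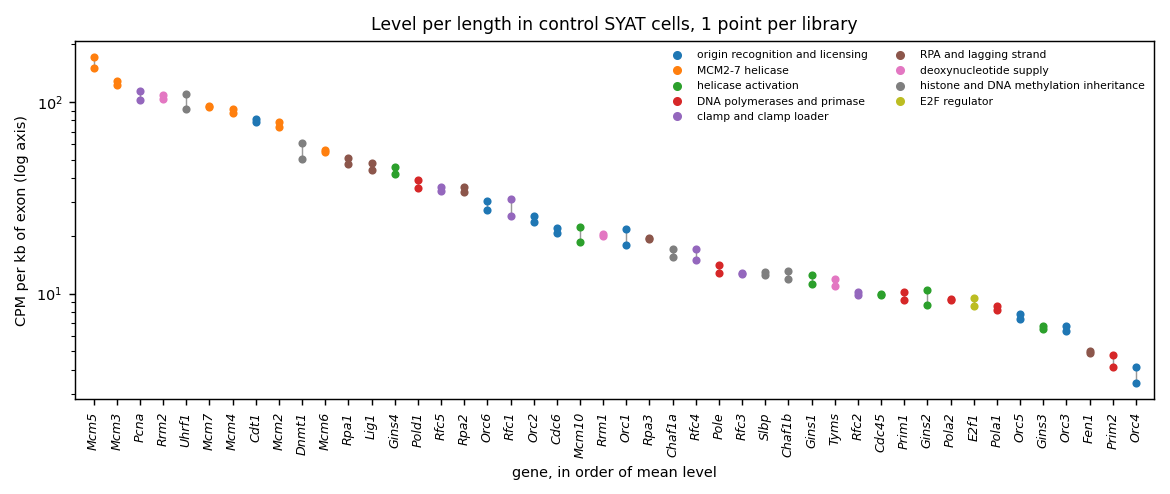
Exon CPM per kb of exon (log axis) of the 46 genes in control SYAT cells, in order of the mean, with 1 point per library and colours by role. The order runs from Mcm5 at 161 to Orc4 at 3.77 CPM per kb, and all 6 MCM2-7 genes lie among the first 11.

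The comparison of LG1 with EG1 asks how far the replication genes rise within G1. In control cells 43 of the 46 members had a log2 fold change above 0, against 49.8% of the 21020 genes tested, and the median member was higher by 0.29 on the log2 scale while the median of all genes was -0.00. After 1 h of IAA 44 of 46 were above 0 (52.2% of all genes), with medians of 0.37 for the members and 0.01 for all genes. The highest values were 0.66 (Rrm2) in control cells and 0.71 (Mcm10) after IAA. The lowest values were those of Orc5 (-0.03 ± 0.18) and Orc4 (-0.11 ± 0.13), ± SE with 2 libraries per condition.

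Whether these differences exceed the replicate spread turned on the pairing of the libraries. Without a block, the edgeR quasi-likelihood test with Benjamini-Hochberg adjustment over all genes called 0 members in either comparison (0% of all genes called higher), and at an unadjusted p under 0.05 it had 2 members higher and 0 lower in control cells. Of all genes 0.709% were higher and 0.733% lower. After IAA 6 members were higher and 0 lower, against 1.42% and 0.89% of all genes. DESeq2 with shrinkage also called 0. With the replicate number as a block, 22 members were higher and 0 lower at an adjusted p under 0.05 in control cells (1.38% of all genes higher, 0.304% lower). After IAA 28 were higher and 0 lower (2.15% and 0.49%). With the added condition of a log2 fold change over 0.5, 6 members were higher in control cells (0.538% of all genes) and 11 after IAA (0.818%), and 0 lower in both. The 6 were Mcm10, Cdc45, Rrm2, Chaf1a, Chaf1b and Uhrf1, all of them also among the 11, which further held Cdc6, Pcna, Pola1, Dnmt1 and E2f1. In the account by role that follows, a gene that rose had an adjusted p under 0.05 with the block, and paired values are given for control cells and then after IAA.

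Within pairs of the same number, the LG1 library was the higher in 4 of 4 pairs for 40 of the 46 members, and in 14.7% of all genes. The exceptions were Orc1, Orc3, Orc5 and Gins3 (3 of 4 pairs) and Orc2 and Orc4 (1 of 4). The median member differed by 0.35 between the libraries numbered 1 and 0.22 between those numbered 2 in control cells, and by 0.37 between the libraries numbered 1 and 0.31 between those numbered 2 after IAA. Taken without pairing, the 4 LG1 libraries lay above the 4 EG1 libraries for 6 members (Pola1, Prim2, Pold1, Pole, Dnmt1 and E2f1) and below for 0, against 2.53% and 2.06% of all genes. The control and IAA comparisons use different libraries, but these share the numbers and the sort. In such bulk samples more cells late in G1 and more RNA per cell cannot be told apart. Leaving out 1 control library at a time gave 2 to 10 members called with the block in control cells, with 2 without EG1 replicate 1, 3 without LG1 replicate 1, 8 without EG1 replicate 2 and 10 without LG1 replicate 2. On the adjusted p alone, each of these fits in control cells gave fewer members than the 22 with all libraries. After IAA 7 to 14 members were called, with 7 without LG1 replicate 1, 10 without EG1 replicate 1, 11 without EG1 replicate 2 and 14 without LG1 replicate 2. Without the block, leaving out 1 library moved the median member to between 0.03 and 0.60 in control cells and 0.10 and 0.61 after IAA.

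**Figure D2:**
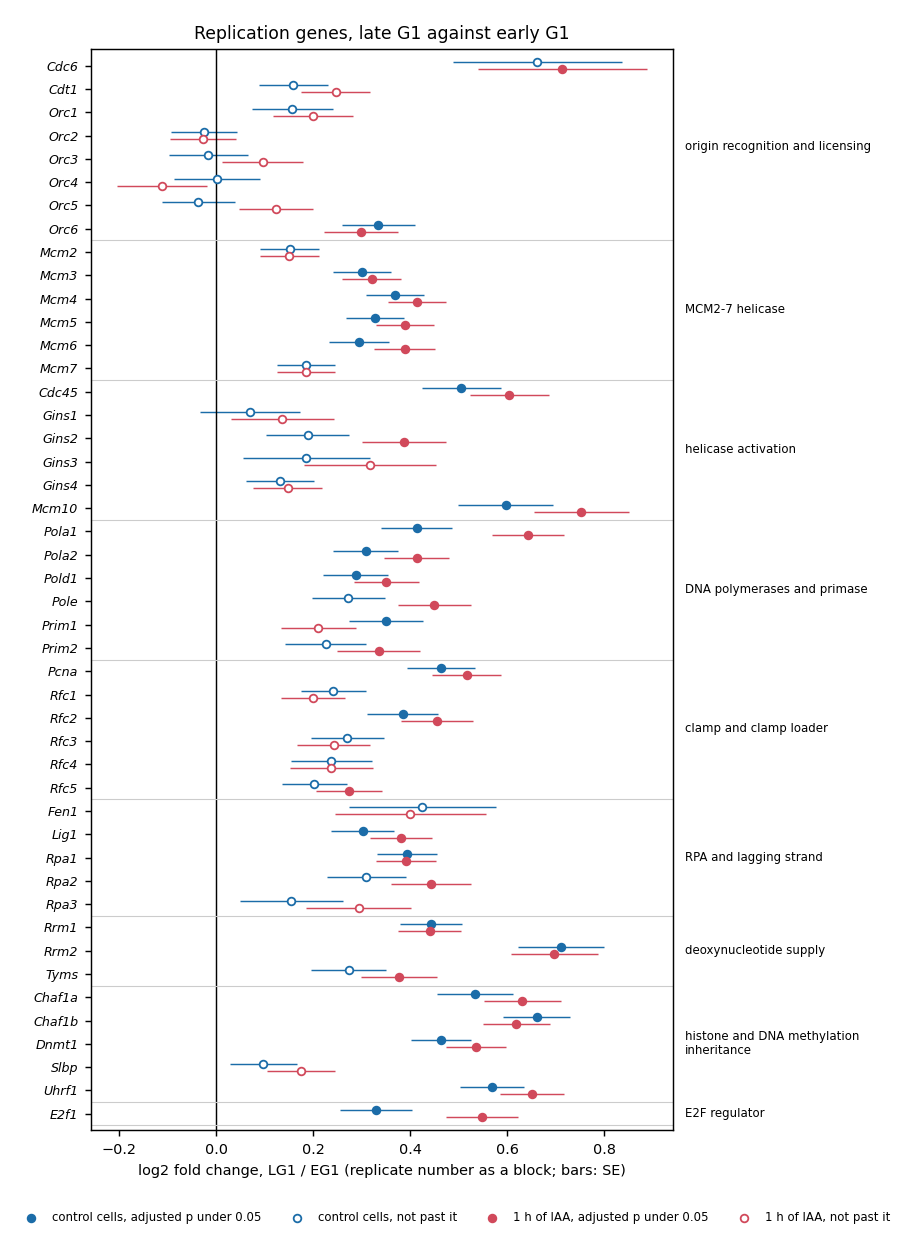
log2 fold change of LG1 over EG1 for the 46 genes by role, with the replicate number as a block, in control cells (blue) and after 1 h of IAA (red). Bars are SE, and filled points have an adjusted p under 0.05 over all genes tested. All but a few origin recognition genes lie right of 0, with Rrm2 at 0.71 in control cells and Mcm10 at 0.75 after IAA.

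Of the 8 origin recognition and licensing genes, Orc6 rose in both comparisons with the block and Cdc6 after IAA, and the others did not pass. Cdc6 recruits the helicase to origins, and its protein is unstable in early G1. It measured 39.2 and 114 CPM in control EG1, 92.6 and 126 in control LG1, 42.2 and 115 in treated EG1 and 95.0 and 144 in treated LG1. The step from EG1 to LG1 was wide between libraries numbered 1 (log2 difference 1.24 in control cells) and narrow between those numbered 2 (0.15), and the blocked log2 fold change was 0.66 ± 0.17 (adjusted p = 0.065) in control cells and 0.71 ± 0.17 (adjusted p = 0.032) after IAA. Cdt1, the partner of Cdc6 in loading, had 190.5 and 289 CPM in control EG1, 230.5 and 299 in control LG1, 223 and 304 in treated EG1 and 279 and 341 in treated LG1. Its LG1 libraries were higher in every pair, but at 0.16 ± 0.07 (adjusted p = 0.38) and 0.25 ± 0.07 (adjusted p = 0.079) it did not pass in either comparison. Orc1, the origin subunit that is itself an E2F target, had 43.8 and 62.0 CPM in control EG1, 55.5 and 61.1 in control LG1, 45.1 and 62.5 in treated EG1 and 56.1 and 66.8 in treated LG1. In control cells its library numbered 2 was slightly lower in LG1. Orc2, Orc3, Orc4 and Orc5, the constant core of the complex, had blocked log2 fold changes between -0.11 and 0.12, none past the test.

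Orc4 and Orc5, the members of lowest log2 fold change, showed how flat this core was. Orc4 measured 27.2 and 25.0 CPM in control EG1, 26.8 and 25.6 in control LG1, 23.2 and 26.1 in treated EG1 and 22.9 and 22.8 in treated LG1, with the phases interleaved in control cells and both LG1 libraries below EG1 after IAA. Orc5 measured 34.3 and 39.7 CPM in control EG1, 31.9 and 40.4 in control LG1, 31.4 and 36.2 in treated EG1 and 33.2 and 40.5 in treated LG1, likewise overlapping. By contrast, with the block, Orc6, which bridges the ring and the helicase, rose by 0.33 ± 0.08 (adjusted p = 0.025) and 0.30 ± 0.08 (adjusted p = 0.04).

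Of the 6 helicase genes, Mcm3, Mcm4, Mcm5 and Mcm6 rose with the block in both comparisons, and Mcm2 and Mcm7 in neither. Mcm5 measured 386 and 608 CPM in control EG1, 496 and 744 in control LG1, 417 and 624 in treated EG1 and 546 and 818 in treated LG1. Each LG1 library exceeded the EG1 library of its number, and the blocked values were 0.33 ± 0.06 (adjusted p = 0.0047) and 0.39 ± 0.06 (adjusted p = 6.9e-04). Mcm2 measured 408 and 554 CPM in control EG1, 444 and 629 in control LG1, 446 and 585 in treated EG1 and 482 and 667 in treated LG1. The order was the same in every pair but the step smaller, at 0.15 ± 0.06 (adjusted p = 0.30) and 0.15 ± 0.06 (adjusted p = 0.24). Over the 6 genes the blocked log2 fold changes ran from 0.15 to 0.41, so that none reached 0.5.

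Among the genes that activate the helicase, Mcm10 and Cdc45 rose past the fold threshold in both comparisons. Cdc45, which completes the active helicase with GINS, measured 23.0 and 33.4 CPM in control EG1, 34.5 and 45.1 in control LG1, 22.4 and 35.3 in treated EG1 and 36.8 and 50.3 in treated LG1. Every LG1 library was above the EG1 library of its number, with 0.51 ± 0.08 (adjusted p = 0.0013) and 0.60 ± 0.08 (adjusted p = 1.7e-04). Mcm10, which is needed for the helicase to start, measured 63.3 and 129 CPM in control EG1, 114 and 166 in control LG1, 67.6 and 122 in treated EG1 and 130.4 and 181 in treated LG1. It gave 0.60 ± 0.10 (adjusted p = 0.0016) and 0.75 ± 0.10 (adjusted p = 1.1e-04), the highest member after IAA. The 4 GINS subunits had smaller values, and only Gins2 passed, after IAA alone, at 0.39 ± 0.09 (adjusted p = 0.017). Gins3 measured 8.55 and 15.2 CPM in control EG1, 11.98 and 14.5 in control LG1, 8.20 and 11.8 in treated EG1 and 11.1 and 13.6 in treated LG1, with overlapping phases.

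Of the 6 polymerase and primase genes, Pola1, Pola2 and Pold1 rose in both comparisons, Prim1 in control cells, and Pole and Prim2 after IAA. Pole, the catalytic subunit of the leading-strand polymerase, measured 143 and 172 CPM in control EG1, 182 and 196 in control LG1, 128 and 167 in treated EG1 and 198 and 204 in treated LG1. The 4 LG1 values lay above the 4 EG1 values. The blocked changes were 0.27 ± 0.08 (adjusted p = 0.085) and 0.45 ± 0.08 (adjusted p = 0.0017). Pola1, which starts each new strand, measured 66.9 and 75.3 CPM in control EG1, 88.2 and 101 in control LG1, 58.8 and 76.7 in treated EG1 and 102 and 108 in treated LG1. It too showed no overlap, and gave 0.41 ± 0.07 (adjusted p = 0.0033) and 0.64 ± 0.07 (adjusted p = 2.0e-05). Without a block Pola1 had the smallest p of any member after IAA, with a log2 fold change of 0.64 ± 0.17 (adjusted p = 1.00) in edgeR.

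The clamp gene Pcna and the loader subunit Rfc2 rose in both comparisons and Rfc5 after IAA. Pcna measured 104 and 212 CPM in control EG1, 158 and 267 in control LG1, 119 and 211 in treated EG1 and 172 and 299 in treated LG1. LG1 was higher in each pair, with 0.46 ± 0.07 (adjusted p = 7.2e-04) and 0.52 ± 0.07 (adjusted p = 1.9e-04). Rfc1, Rfc3 and Rfc4 did not pass, with blocked values of 0.20 to 0.27. On the lagging strand, the ligase gene Lig1 and Rpa1, the large subunit of the single-strand binding protein, rose in both comparisons and Rpa2 after IAA, while Fen1 and Rpa3 did not pass.

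Ribonucleotide reductase, which makes deoxynucleotides, rose in both of its subunits, and Tyms, which makes thymidylate, after IAA alone. Rrm2, the subunit whose supply limits the enzyme, measured 125 and 262 CPM in control EG1, 233 and 379 in control LG1, 144 and 279.9 in treated EG1 and 266 and 397 in treated LG1. Every LG1 library was above the EG1 library of its number, and Rrm2 was the highest member in control cells at 0.71 ± 0.09 (adjusted p = 7.0e-05), with 0.70 ± 0.09 (adjusted p = 8.4e-05) after IAA. Unblocked, its SE was 0.44 in control cells, which shows the width of the gap between numbers.

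The group that copies chromatin and DNA methylation had 4 of its 5 genes higher in both comparisons. Uhrf1 measured 206 and 356 CPM in control EG1, 329 and 491 in control LG1, 227 and 369.7 in treated EG1 and 367 and 564 in treated LG1. It gave 0.57 ± 0.07 (adjusted p = 2.4e-05) and 0.65 ± 0.07 (adjusted p = 4.2e-06). Chaf1a and Chaf1b, subunits of the factor that places new histones behind the fork, showed a step of like size. Chaf1a measured 57.2 and 109 CPM in control EG1, 92.9 and 143 in control LG1, 63.1 and 112 in treated EG1 and 106 and 160.2 in treated LG1. Chaf1a gave 0.53 ± 0.08 (adjusted p = 5.1e-04) and 0.63 ± 0.08 (adjusted p = 6.0e-05). Chaf1b measured 38.3 and 66.7 CPM in control EG1, 64.3 and 100.2 in control LG1, 43.0 and 68.1 in treated EG1 and 66.4 and 104 in treated LG1. Chaf1b gave 0.66 ± 0.07 (adjusted p = 5.6e-06) and 0.62 ± 0.07 (adjusted p = 1.5e-05). Both were higher in LG1 in each pair. Dnmt1, the maintenance methyltransferase that Uhrf1 recruits, measured 262 and 317 CPM in control EG1, 375 and 421 in control LG1, 276 and 328 in treated EG1 and 404 and 471 in treated LG1. Its phases did not overlap, and it gave 0.46 ± 0.06 (adjusted p = 1.3e-04) and 0.54 ± 0.06 (adjusted p = 2.0e-05). Slbp, which binds histone mRNA and whose control is known to lie largely in translation and protein stability, measured 58.1 and 87.7 CPM in control EG1, 66.3 and 88.3 in control LG1, 58.1 and 83.2 in treated EG1 and 68.4 and 90.3 in treated LG1. It did not pass, at 0.10 ± 0.07 (adjusted p = 0.63) and 0.17 ± 0.07 (adjusted p = 0.24).

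E2f1, which activates many of the other members, measured 31.9 and 40.5 CPM in control EG1, 42.0 and 48.7 in control LG1, 32.6 and 37.7 in treated EG1 and 48.0 and 54.7 in treated LG1. The 4 LG1 libraries were above the 4 EG1 libraries, and the blocked log2 fold change was 0.33 ± 0.07 (adjusted p = 0.023) in control cells and 0.55 ± 0.07 (adjusted p = 1.6e-04) after IAA.

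**Figure D3:**
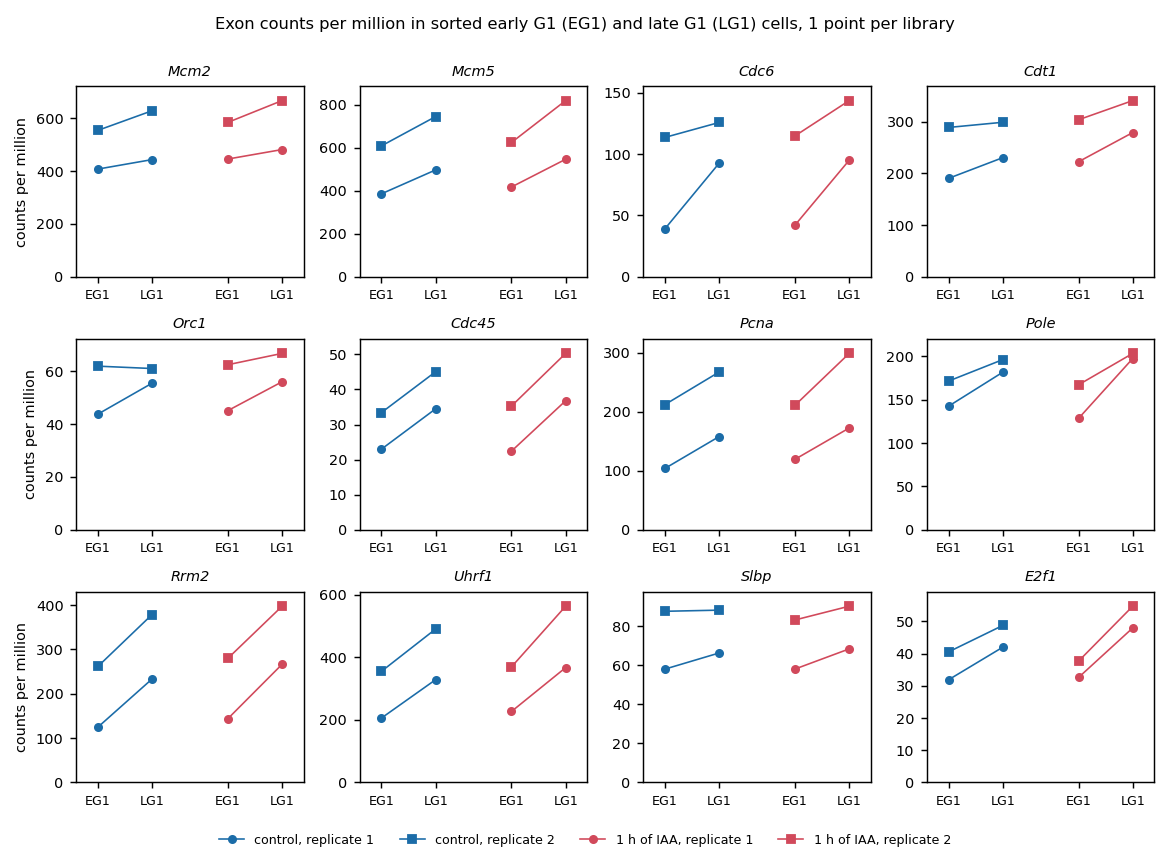
Exon CPM of 12 members in the 8 sorted libraries, with a line joining the EG1 and LG1 libraries of the same number, control in blue and 1 h of IAA in red, circles for replicate 1 and squares for replicate 2. Replicate 2 lies above replicate 1 in each panel, and all lines rise from EG1 to LG1 but that of Orc1 in control replicate 2.

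A second list of 50 replication genes that are not members had values of the same sign. Its median was 0.20 in control cells and 0.29 after IAA, and with the block 13 and 23 of the 50 were higher at an adjusted p under 0.05, with 0 lower in each. The 3 of smallest p in control cells were Ticrr, which brings Cdc45 to origins, at 0.79 ± 0.10 (adjusted p = 3.7e-05), Fam111a, a protease that acts at forks, at 1.16 ± 0.10 (adjusted p = 2.8e-07), and Atad5, which unloads the clamp, at 0.47 ± 0.08 (adjusted p = 0.0036). Mitotic genes differed too. The 20 of that list had a median of -0.35 in control cells and -0.35 after IAA, and with the block 11 and 11 of them were lower and 3 and 4 higher at an adjusted p under 0.05. Their summed CPM was 1788 and 2667 in the control EG1 libraries, 1645 and 2266 in control LG1, 1815 and 2650.2 in EG1 after IAA and 1751 and 2274 in LG1 after IAA. All 20 were detected in every group, and the part of these transcripts in the phase difference of the members was not tested.

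IAA for 1 h was compared with control in each sorted phase. In EG1 29 of 46 members were above 0 (50.1% of all genes) and the median was 0.03 on the log2 scale. In LG1 37 were above 0 (52.5% of all genes) and the median was 0.10. Values ran from -0.24 (Gins3) to 0.14 (Cdt1) in EG1 and from -0.20 (Orc4) to 0.23 (Gins2) in LG1. The edgeR test called 0 members in each, without or with the block, 0 had an unadjusted p under 0.05, and DESeq2 called 0. Without the block 0% of all genes were called higher in EG1 and 0% in LG1. With it, 0.00476% were higher and 0.00476% lower in EG1 (0.00951% and 0.00476% on the adjusted p alone), and 0.00476% lower in LG1. A looser rule for these sorts, an unadjusted p under 0.05 and a log2 fold change over 0.25, also gave 0 members, against 0.19% of all genes higher and 1.03% lower in EG1, and 0.285% and 0.733% in LG1. Within numbers, the median member of EG1 differed from its control by 0.09 and 0.01 for the numbers 1 and 2, and that of LG1 by 0.10 between the libraries numbered 1 and 0.10 between those numbered 2. The difference of the response between the phases had a median of 0.08 over the members and ran from -0.14 (Prim1) to 0.22 (E2f1), with 0 members called and 0 at an unadjusted p under 0.05. Gins2 measured 20.7 and 35.2 CPM in control EG1, 26.3 and 36.7 in control LG1, 22.9 and 33.9 in treated EG1 and 30.5 and 43.6 in treated LG1. Prim1 measured 24.0 and 32.6 CPM in control EG1, 30.4 and 41.8 in control LG1, 26.5 and 34.3 in treated EG1 and 30.4 and 40.0 in treated LG1. In both genes the treated and control libraries overlapped within each phase. In LG1, both treated libraries lay above both controls for 3 members (Pola1, Pole and Prim2) and below for 2 (Orc3 and Orc4), and in EG1 for 0 and 0, against 7.83% and 10.4% of all genes in LG1 and 7.98% and 13.4% in EG1.

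**Figure D4:**
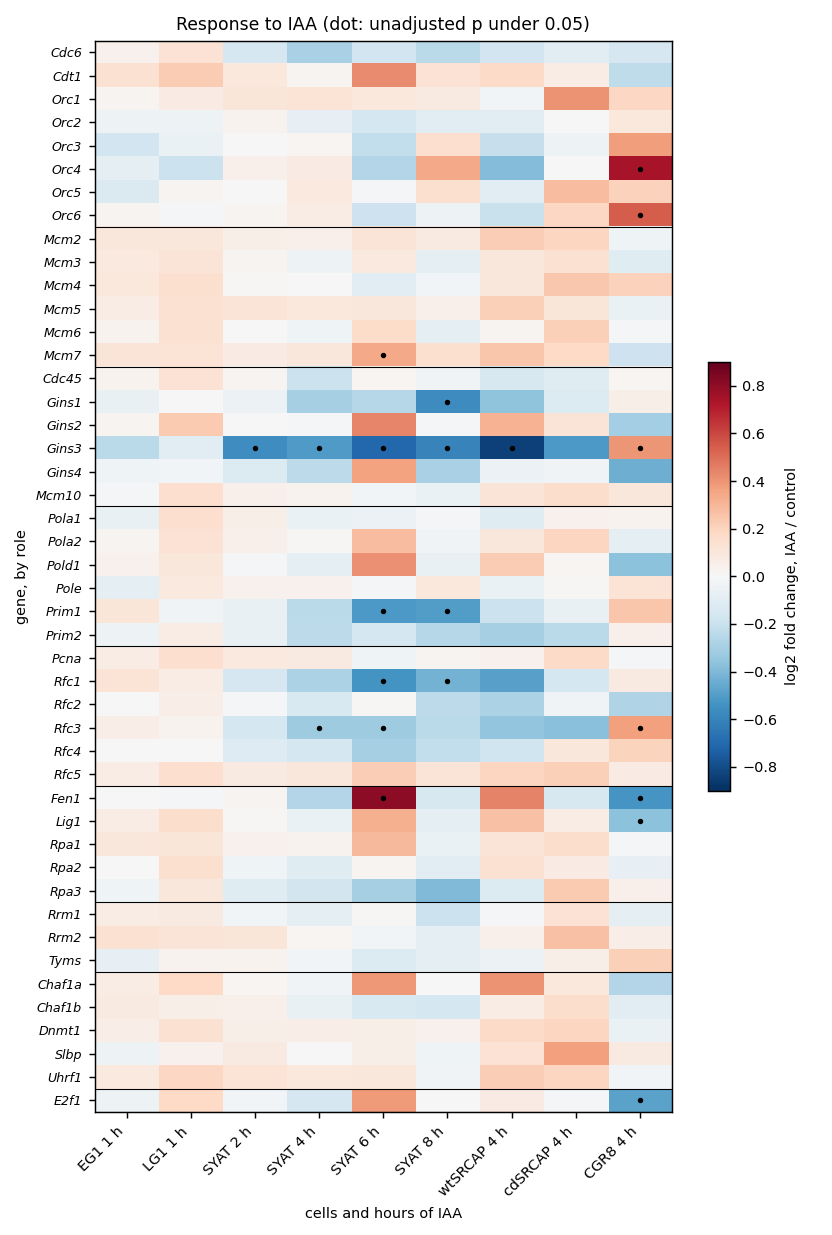
log2 fold change of IAA over control for the 46 genes (rows, by role) in 9 comparisons (columns), red for higher and blue for lower. A dot marks an unadjusted p under 0.05 in the edgeR test, and no cell passed the adjusted threshold. The value of Gins3 is below 0 in all 4 time course columns, in wtSRCAP (-0.84) and cdSRCAP cells (-0.52) and in EG1 (-0.24). It is above 0 in CGR8 (0.40).

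In unsorted SYAT cells the median replication gene stayed near the control level over 8 h of IAA. Among the lowest values were those of some subunits of GINS, primase and the clamp loader. These low values did not pass the adjusted test of the fit without a block. Another subunit of the loader, Rfc5, lay above both controls in every treated library. The median member differed by 0.02 at 2 h, -0.03 at 4 h, 0.01 at 6 h and -0.06 at 8 h, and the medians of all 19205 genes tested were 0.00, 0.02, 0.01 and 0.03. These 4 comparisons share the same 2 control libraries. The edgeR test called 0 members at any time (0.0312% of all genes higher and 0.0364% lower at 6 h, the time with most calls). At an unadjusted p under 0.05, 0 members were higher and 1 lower at 2 h (1.37% and 2.55% of all genes), 0 and 2 at 4 h (3.09% and 6%), 2 and 4 at 6 h (7.93% and 8.21%) and 0 and 4 at 8 h (5.13% and 8.44%). Out of 46, the members' counts are near these shares. DESeq2 with shrinkage called 1 member, Gins3, lower at 6 h and 0 at the other times. Both treated libraries lay below both controls for 7 members at 2 h, 18 at 4 h, 8 at 6 h and 18 at 8 h. They lay above both controls for 3, 3, 2 and 4 members. The shares of all genes at each time are not given here, so these counts are not read as a result about the members.

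Gins3, a subunit of the GINS complex, was the lowest member at every time. It measured 17.8 and 18.4 CPM in the controls, 12.1 and 12.47 at 2 h, 12.4 and 13 at 4 h, 11.7 and 10.5 at 6 h and 11.6 and 12.3 at 8 h. Each of the 8 treated libraries was below both controls. The log2 fold change was -0.56 ± 0.17 (adjusted p = 0.93) at 2 h, -0.51 ± 0.17 (adjusted p = 0.35) at 4 h, -0.71 ± 0.17 (adjusted p = 0.097) at 6 h and -0.60 ± 0.17 (adjusted p = 0.15) at 8 h, so that it did not pass the adjusted threshold of the edgeR test without a block. Gins1, its partner, measured 17.0 and 19.1 CPM in the controls, 16.3 and 18.5 at 2 h, 14.6 and 14.8 at 4 h, 14.2 and 16.0 at 6 h and 11.2 and 13.1 at 8 h. Both libraries were below the controls from 4 h on, with -0.57 ± 0.18 (adjusted p = 0.20) at 8 h.

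Prim1, the catalytic primase subunit, measured 35.9 and 39.5 CPM in the controls, 34.5 and 37.5 at 2 h, 28.8 and 34.8 at 4 h, 28.0 and 24.6 at 6 h and 27.4 and 25.9 at 8 h. It gave -0.52 ± 0.16 (adjusted p = 0.17) at 6 h and -0.50 ± 0.16 (adjusted p = 0.20) at 8 h. Rfc1, the large subunit of the clamp loader, measured 153 and 187 CPM in the controls, 143 and 163 at 2 h, 128 and 150.2 at 4 h, 123 and 112 at 6 h and 119.6 and 133 at 8 h. It gave -0.53 ± 0.15 (adjusted p = 0.14) at 6 h and -0.43 ± 0.15 (adjusted p = 0.25) at 8 h. For both genes the libraries at 4, 6 and 8 h lay below both controls. Rfc3, another loader subunit, measured 46.1 and 45.97 CPM in the controls, 42.1 and 40.6 at 2 h, 35.8 and 37.9 at 4 h, 37.7 and 36.0 at 6 h and 41.9 and 35.8 at 8 h. All 8 treated libraries were below both controls, with -0.32 ± 0.14 (adjusted p = 0.52) at 4 h. In all, 4 members (Gins3, Rfc3, Rfc4 and Rpa3) were below both controls in every treated library and 2 (Mcm7 and Rfc5) above, against 9.2% and 5.97% of all genes.

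Values at 6 h rested in part on replicate 2. Fen1, the highest member at 6 h, measured 12.2 and 11.9 CPM in the controls, 11.1 and 13.4 at 2 h, 9.81 and 10.3 at 4 h, 12.1 and 30.2 at 6 h and 11.0 and 10.8 at 8 h. Its 0.81 ± 0.34 (adjusted p = 0.28) came from that library alone, since without it the log2 fold change was 0.00. A fit that leaves out 1 library at 6 h takes the spread of the lone library from the other groups. Its calls are not a replicated test, and only its effect sizes are given. The median member at 6 h was -0.11 without replicate 2 and 0.13 without replicate 1. Gins3 was low in both, at -0.63 without replicate 2.

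The licensing genes kept near their control levels. Cdc6 measured 108 and 116 CPM in the controls, 95.3 and 106 at 2 h, 89.4 and 93.1 at 4 h, 89.4 and 109 at 6 h and 93.8 and 94.9 at 8 h. Its libraries at 2, 4 and 8 h were below both controls. Cdt1 measured 246 and 256 CPM in the controls, 251 and 285 at 2 h, 243 and 269 at 4 h, 243 and 430.3 at 6 h and 264 and 287 at 8 h. It was above both controls at 8 h and highest in replicate 2 at 6 h. Orc1, the highest member at 4 h, measured 62.2 and 75.2 CPM in the controls, 69.2 and 78.7 at 2 h, 66.2 and 83.1 at 4 h, 71.5 and 75.0 at 6 h and 69.4 and 76.0 at 8 h. Treated and control libraries overlapped at each time. For the helicase, Mcm2 measured 516 and 546 CPM in the controls, 525 and 577 at 2 h, 547 and 549.6 at 4 h, 534 and 616 at 6 h and 579 and 542 at 8 h. Mcm5 measured 599 and 683 CPM in the controls, 649 and 739 at 2 h, 653 and 717 at 4 h, 633 and 745 at 6 h and 680.1 and 647 at 8 h. Their log2 fold changes stayed between 0.05 and 0.12. Cdc45 measured 34.6 and 35.0 CPM in the controls, 33.9 and 36.8 at 2 h, 30.2 and 30.6 at 4 h, 32.7 and 37.7 at 6 h and 32.1 and 36.0 at 8 h. Both libraries at 4 h were below the controls, with -0.19 ± 0.14.

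At the fork, Pcna measured 244 and 275 CPM in the controls, 264 and 288 at 2 h, 271 and 279 at 4 h, 256 and 249.9 at 6 h and 279 and 248 at 8 h. Pole measured 144 and 158 CPM in the controls, 147 and 162 at 2 h, 146 and 164 at 4 h, 142 and 156 at 6 h and 141 and 181 at 8 h. In both genes the treated libraries overlapped the controls at each time. Rrm2 measured 287 and 302 CPM in the controls, 313 and 321 at 2 h, 305 and 292 at 4 h, 273 and 306 at 6 h and 303 and 254 at 8 h. It was above both controls at 2 h only. Uhrf1, the highest member at 2 h (0.12 ± 0.16), measured 393 and 467 CPM in the controls, 424 and 511 at 2 h, 433 and 484 at 4 h, 404 and 518 at 6 h and 424 and 416 at 8 h. Slbp measured 75.7 and 79.0 CPM in the controls, 78.8 and 84.7 at 2 h, 74.9 and 79.1 at 4 h, 75.3 and 85.1 at 6 h and 77.3 and 73.4 at 8 h, and its log2 fold changes lay between -0.04 and 0.08. E2f1 measured 27.3 and 30.0 CPM in the controls, 27.5 and 28.7 at 2 h, 25.2 and 26.5 at 4 h, 26.3 and 48.3 at 6 h and 28.6 and 28.6 at 8 h. It was below both controls at 4 h and highest in replicate 2 at 6 h. Orc4, the highest member at 8 h (0.34 ± 0.29), measured 25.5 and 30.8 CPM in the controls, 24.9 and 33.3 at 2 h, 27.6 and 31.7 at 4 h, 30.9 and 15.9 at 6 h and 30.0 and 41.3 at 8 h. Its libraries at 8 h overlapped the controls.

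**Figure D5:**
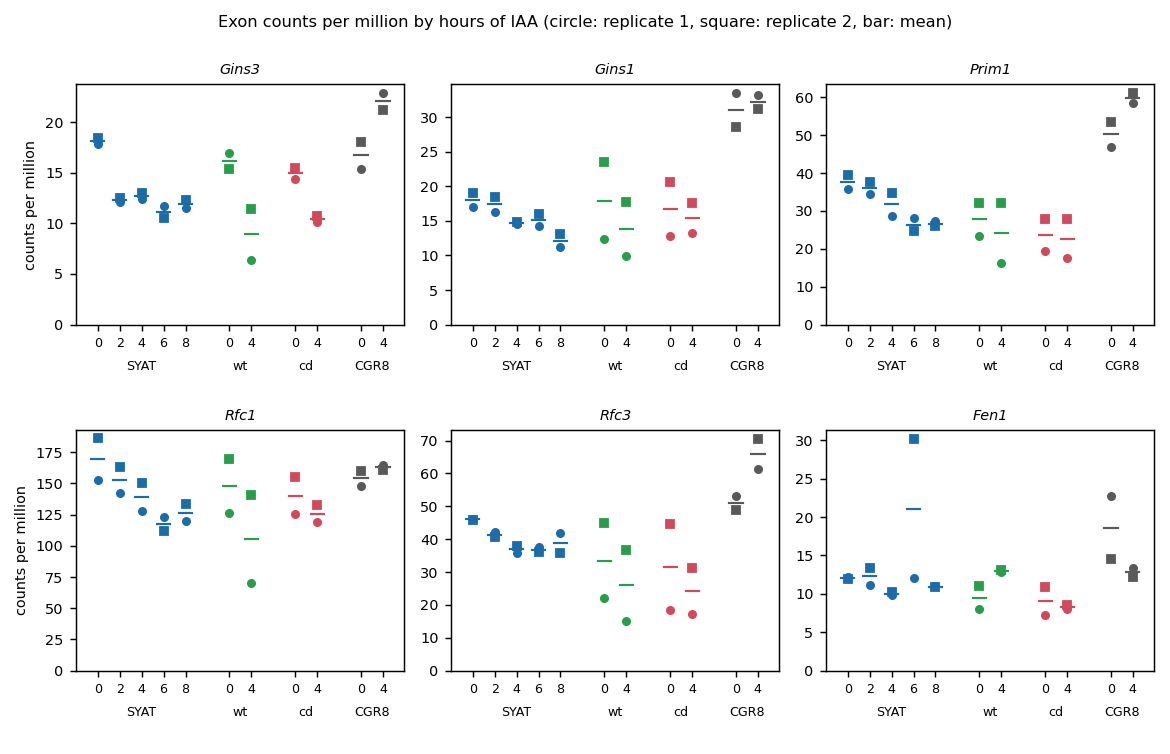
Exon CPM of 6 members by hours of IAA in SYAT cells, wtSRCAP (wt) and cdSRCAP (cd) cells and CGR8 cells, with circles for replicate 1, squares for replicate 2 and a bar at the mean. The 4 tables were scaled separately, so heights are comparable within a colour of SYAT or CGR8 and within the wt and cd pair. Gins3 is lower in all 8 treated SYAT libraries and higher in both treated CGR8 libraries, and the Fen1 point at 30.2 CPM is replicate 2 at 6 h.

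CGR8 cells have no AID tag, so 4 h of IAA in them gives effects of IAA without SRCAP degradation. Their controls were untreated, while SYAT controls were kept in auxinole, so the comparisons in CGR8 and SYAT cells differ in more than the tag. The median member differed by 0.00 and the edgeR test called 0 members (0% of all 20250 genes higher and 0.00988% lower). DESeq2 with shrinkage called 0 too. Without control replicate 2, when the lone control library was assumed to vary like the other group, the median was -0.06. At an unadjusted p under 0.05, 4 members were higher (Orc4, Orc6, Gins3 and Rfc3) and 3 lower (Fen1, Lig1 and E2f1), against 5.04% and 4.12% of all genes. Orc4, the highest, measured 12.9 and 24.7 CPM untreated and 26.6 and 36.4 with IAA, with 0.74 ± 0.29 (adjusted p = 0.54). Orc6, of smallest p, measured 60.7 and 66.0 CPM untreated and 83.8 and 101 with IAA, with 0.54 ± 0.15 (adjusted p = 0.54). Both treated libraries of each gene were above both controls.

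Fen1, the lowest member in CGR8, measured 22.7 and 14.5 CPM untreated and 13.4 and 12.3 with IAA, with -0.53 ± 0.23 (adjusted p = 0.54). E2f1 measured 37.2 and 28.1 CPM untreated and 25.9 and 20.8 with IAA, also lower without overlap, with -0.48 ± 0.19 (adjusted p = 0.54). Gins3 measured 15.4 and 18.1 CPM untreated and 22.9 and 21.2 with IAA, higher in each treated library, with 0.40 ± 0.17 (adjusted p = 0.54). Rfc3 measured 53.2 and 48.8 CPM untreated and 61.5 and 70.4 with IAA, likewise higher, with 0.37 ± 0.14 (adjusted p = 0.54). Over all members, 13 lay above and 8 below both controls in both treated libraries, against 21.6% and 20.6% of all genes. Among the licensing and helicase genes, Cdc6 measured 159.8 and 149.6 CPM untreated and 147 and 132 with IAA, Cdt1 400.0 and 337 CPM untreated and 344 and 285 with IAA and Orc1 85.3 and 81.9 CPM untreated and 89.1 and 101 with IAA. Mcm2 measured 619.7 and 596 CPM untreated and 629 and 554 with IAA, Mcm5 883 and 859 CPM untreated and 887 and 789 with IAA and Cdc45 53.8 and 48.0 CPM untreated and 53.6 and 49.5 with IAA, and all 3 overlapped between treated and control. At the fork, Pcna measured 357 and 369 CPM untreated and 364 and 353 with IAA, Pole 163 and 191 CPM untreated and 194 and 191 with IAA and Rrm2 302 and 302 CPM untreated and 311 and 319 with IAA. Uhrf1 measured 576 and 563 CPM untreated and 609 and 514 with IAA and Slbp 59.9 and 60.8 CPM untreated and 59.03 and 68.8 with IAA. Of these genes, Orc1, Pole and Rrm2 were higher and Cdc6 lower in both treated libraries than in both controls, by at most 0.19 on the log2 scale.

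Expression of wtSRCAP or cdSRCAP asks whether the exchange activity is needed for the response to IAA. The edgeR test called 0 members in any of the 5 comparisons of this table, with and without the block, and DESeq2 called 0. The share of all 19111 genes called was 0.00523% lower for IAA in wtSRCAP cells, and with the block 1.74% were higher and 1.47% lower. For IAA in cdSRCAP cells 0% were lower without the block, and 0.523% higher and 1.28% lower with it. The median member differed after IAA by 0.03 in wtSRCAP and 0.10 in cdSRCAP cells, and the difference of the responses had a median of 0.08. Within the numbers 1 and 2 the medians were 0.04 and 0.01 in wtSRCAP and 0.20 and 0.03 in cdSRCAP cells, so the cdSRCAP value was larger between the libraries numbered 1. At an unadjusted p under 0.05, 1 member, Gins3, was lower in wtSRCAP cells (4.48% of all genes) and 0 members passed in the other comparisons.

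Gins3 was the lowest member in both clones. It measured 16.9 and 15.3 CPM in wtSRCAP controls, 6.34 and 11.5 in treated wtSRCAP, 14.4 and 15.5 in cdSRCAP controls and 10.1 and 10.8 in treated cdSRCAP. Both treated libraries were below both controls in each clone. The log2 fold change was -0.84 ± 0.31 (adjusted p = 0.65) in wtSRCAP and -0.52 ± 0.30 (adjusted p = 0.97) in cdSRCAP cells, and the difference between the clones was 0.32 ± 0.43 (adjusted p = 1.00). Fen1, the highest member in wtSRCAP cells after IAA, measured 7.96 and 11.0 CPM in wtSRCAP controls, 12.8 and 13.1 in treated wtSRCAP, 7.31 and 10.9 in cdSRCAP controls and 8.00 and 8.57 in treated cdSRCAP. It gave 0.44 ± 0.30 (adjusted p = 0.79), and had the lowest value of cdSRCAP against wtSRCAP cells after IAA, -0.64 ± 0.30 (adjusted p = 0.95), and of the difference of responses (-0.59 ± 0.43). Orc1, the highest in cdSRCAP cells after IAA, measured 51.9 and 83.1 CPM in wtSRCAP controls, 49.2 and 83.1 in treated wtSRCAP, 39.9 and 60.1 in cdSRCAP controls and 57.8 and 74.7 in treated cdSRCAP. It gave 0.40 ± 0.34, and treated libraries overlapped the controls.

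Most replication transcripts had slightly lower values in control cdSRCAP than in control wtSRCAP cells. Only 8 of 46 members were above 0 (47.9% of all genes) and the median was -0.10, against -0.02 for all genes, with -0.12 between the libraries numbered 1 and -0.15 between those numbered 2. No member passed an unadjusted p of 0.05, and both libraries of a clone lay apart from both of the other for 0 members that were higher and 2 that were lower (15.7% and 14.1% of all genes). The 20 mitotic genes had a median of -0.27 in the same comparison, with summed CPM of 4939 and 6031 in control wtSRCAP and 3961 and 4892 in control cdSRCAP libraries, and their part in the value of the members was not tested. The highest member was Gins2 (0.17 ± 0.28) and the lowest Rfc4 (-0.58 ± 0.44). Gins2 measured 17.7 and 30.1 CPM in wtSRCAP controls, 26.2 and 33.0 in treated wtSRCAP, 24.9 and 28.8 in cdSRCAP controls and 29.6 and 28.6 in treated cdSRCAP. Rfc4 measured 16.1 and 24.8 CPM in wtSRCAP controls, 12.49 and 23.5 in treated wtSRCAP, 9.04 and 18.2 in cdSRCAP controls and 10.9 and 18.5 in treated cdSRCAP. The gap between numbers was wide in each condition. After IAA the median of cdSRCAP against wtSRCAP was -0.05, but 0.09 between the libraries numbered 1 and -0.18 between those numbered 2, so that the sign was not shared by the numbers, and Orc4 was the highest member at 0.29 ± 0.35.

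In the other genes that were followed through all tables, the gap between numbers was the main difference among libraries. Cdc6 measured 60.4 and 107 CPM in wtSRCAP controls, 50.8 and 97.7 in treated wtSRCAP, 55.9 and 86.3 in cdSRCAP controls and 58.6 and 74.1 in treated cdSRCAP. Cdt1 measured 234 and 348 CPM in wtSRCAP controls, 295 and 362 in treated wtSRCAP, 241 and 279 in cdSRCAP controls and 266 and 278 in treated cdSRCAP. In Mcm2 the values were 463 and 663 CPM in wtSRCAP controls, 559 and 752 in treated wtSRCAP, 433 and 641 in cdSRCAP controls and 571 and 657 in treated cdSRCAP. The library numbered 2 was the higher in each condition for these 3 genes. Mcm5 measured 670.4 and 931 CPM in wtSRCAP controls, 829 and 1032 in treated wtSRCAP, 682 and 885 in cdSRCAP controls and 796 and 895 in treated cdSRCAP. For Cdc45 they were 21.5 and 40.0 CPM in wtSRCAP controls, 19.8 and 35.7 in treated wtSRCAP, 23.0 and 36.9 in cdSRCAP controls and 23.1 and 32.4 in treated cdSRCAP. The same order of numbers held in each condition for these as well. Pcna measured 165 and 259 CPM in wtSRCAP controls, 159.8 and 275 in treated wtSRCAP, 144 and 229 in cdSRCAP controls and 175 and 244 in treated cdSRCAP. Rrm2 measured 207 and 392 CPM in wtSRCAP controls, 213 and 404 in treated wtSRCAP, 162 and 277 in cdSRCAP controls and 218 and 309 in treated cdSRCAP. Pole measured 178 and 176 CPM in wtSRCAP controls, 152 and 187 in treated wtSRCAP, 167 and 177 in cdSRCAP controls and 172 and 176 in treated cdSRCAP. For none of these 3 did the treated and control libraries of a clone separate. Uhrf1 measured 381 and 556 CPM in wtSRCAP controls, 467 and 627 in treated wtSRCAP, 360.1 and 543 in cdSRCAP controls and 468 and 566 in treated cdSRCAP. Slbp measured 39.0 and 61.1 CPM in wtSRCAP controls, 40.9 and 68.2 in treated wtSRCAP, 31.6 and 49.4 in cdSRCAP controls and 43.7 and 61.3 in treated cdSRCAP. E2f1 measured 34.9 and 40.3 CPM in wtSRCAP controls, 41.1 and 38.2 in treated wtSRCAP, 46.4 and 35.7 in cdSRCAP controls and 43.0 and 38.3 in treated cdSRCAP. Of these 11 genes only E2f1, in 3 conditions, and Pole, in control wtSRCAP cells, had the library numbered 1 above the library numbered 2.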

How the data were processed

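Nuclear RNA-seq counts per gene were deposited by the authors in 4 tables, with columns for reads in exons and in introns. Per the labels and the methods of the study, NEBNext Ultra II Directional libraries of biological duplicates were aligned with STAR to mm10, handled with SAMtools 1.10 and Picard, counted with featureCounts on GENCODE vM25 and compared with DESeq2. The strand setting is not given in the sources used here. The authors' tables of fold changes and p-values were not used, and 0 columns of the count tables were left out.

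Each table was fitted on its own, over all genes that passed filterByExpr (minimum count 10), with edgeR 4.0.16 (quasi-likelihood test, TMM, a mean per group) in R 4.3.3. A gene was called at a Benjamini-Hochberg adjusted p under 0.05 over all genes tested and a log2 fold change beyond 0.5 in either direction. All 46 members passed the filter in each exon table, with 21020, 19205, 20250 and 19111 genes tested in the sorted, time course, CGR8 and wtSRCAP and cdSRCAP tables. Duplicates give wide errors. The p-values test a difference between group means against a spread estimated over all groups of a table. Exon and intron columns were fitted separately, and CPM of different tables were not compared by a test. Symbols and gene lengths came from the GENCODE annotation at hand (vM21), in which 54349 of the 55401 gene IDs were found with their version.

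Same-numbered libraries deviated together in the sorted table (correlations of deviations from group means 0.37 to 0.59) and in the wtSRCAP and cdSRCAP table (0.26 to 0.38), so blocked fits are given there. The labels give the numbers and not what they mark. Alternatives were DESeq2 1.42.0 with shrinkage, its size factors in edgeR, no filter, thinning to the smallest library and intron columns. Others were no fold minimum, fits of only the 2 conditions compared and leaving out libraries. The count tests were checked on simulated data with 100 changed genes at each size of change, drawn from genes above the median level. Recovery was scored on the adjusted p and the sign, without the fold minimum of the calls. At log2 changes of 0.5 and 1, unblocked fits recovered 0 and 0 for control LG1 against EG1 and IAA in wtSRCAP cells. They recovered 1 and 41 at 2 h of IAA (3 false calls each) and 9 and 78 in CGR8 (13 each). With the block, 84 and 100 were recovered for LG1 against EG1 (10 each) and 20 and 82 in wtSRCAP cells (5 each). So 0 calls without a block do not show that members were unchanged.

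The members and gene lists were chosen with earlier results of these data known. Values in every library are given for 12 members fixed by name, for called members (the 10 of smallest p where more than 10 were called) and for the highest and lowest member of each comparison. Those given for Gins1, Rfc1, Rfc3, Orc6 and other members at an unadjusted p under 0.05, and for Dnmt1, Pola1, Chaf1a and Chaf1b, were added after their values were seen.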

Additional observations from a re-analysis of the deposited data

Results flagged for a closer look

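The 5 members below moved in opposite directions after 4 h of IAA in SYAT and in CGR8 cells, with both treated libraries below both controls in the first and above both controls in the second. The log2 fold changes in SYAT and CGR8 cells were -0.075 and 0.096 for Orc2, -0.51 and 0.40 for Gins3, -0.29 and 0.078 for Rfc1, -0.32 and 0.37 for Rfc3, and -0.24 and 0.25 for Prim1. The difference between the cell lines was not tested, since the tables were fitted apart. The controls differed as well, being untreated in CGR8 and kept in auxinole in SYAT cells. These 5 of 46 members are 10.9%, and 8.04% of the 18368 genes tested in both tables did the same. Groups of 2 libraries allow no check for a single outlying sample.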

How the results depend on the processing

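In the sorted table, where same-numbered libraries were paired, the call of members depended on the replicate block. The members called higher in LG1 numbered 0 without it in control cells and after IAA, and 6 and 11 with it. With the block and another choice, the counts were 22 and 28 with no fold minimum, 3 and 5 by DESeq2 with shrinkage, 23 and 24 by DESeq2 with no fold minimum, 7 and 10 with no filter, 7 and 11 with DESeq2 size factors in edgeR, and 7 and 11 after thinning to the smallest library. Leaving out 1 library at a time gave 0 in all cases without the block, 2 to 10 and 7 to 14 with it (8 at least in control cells when the library left out was a replicate 2), and 3 to 12 and 19 to 29 with it and no fold minimum (21 without EG1 replicate 1). The block itself rests on correlations seen in these data, and fits that join it to another choice were also chosen after seeing the data. In wtSRCAP and cdSRCAP cells the block changed no call, except that 2 members were lower after IAA in wtSRCAP cells with the block and no filter and 1 with the block and thinning. In the time course the same-number correlations were 0.27 to 0.59 between groups other than 6 h and -0.04 to 0.06 for the pairs with 6 h, and in CGR8 the correlation was 0.07. Since not every pair was above 0.1, the numbers were not taken to pair these libraries. There the block gave 2 members lower at 6 h, Gins3 (-0.70 ± 0.14, edgeR adjusted p = 0.032) and Rfc1 (-0.52 ± 0.12, adjusted p = 0.045) (also 2 with no fold minimum, 1 by DESeq2 and 2 by DESeq2 with no fold minimum) and 2 higher in CGR8. Without a block, DESeq2 called 1 member lower at 6 h and the fit with no filter 2 higher in CGR8.

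Leaving out 1 library leaves a group of 1, which was assumed to vary like the other groups. It gave medians of -0.11 to 0.13 at 6 h, -0.058 to 0.060 in CGR8 and -0.40 to 0.37 for IAA in wtSRCAP cells. Counts of calls at 6 h and in CGR8 also moved with the library left out. The value of single members changed sign, with no call, over such leave-outs for Cdt1 (-0.12 to 0.47) and Gins3 (-0.59 to 0.23, and -0.43 to 0.035 with the block) after IAA in EG1, Gins2 after IAA in LG1 (-0.024 to 0.50), Gins2 (-0.17 to 0.61) in control cdSRCAP against wtSRCAP, Orc4 (-0.16 to 0.87) in the same after IAA, Orc1 at 4 h (-0.053 to 0.27), Uhrf1 at 2 h (-0.020 to 0.25), Orc5 in LG1 control (-0.21 to 0.13, and -0.089 to 0.012 with the block), Prim1 in the difference of responses between phases (-0.38 to 0.11) and, with the block, Orc4 in LG1 after IAA (-0.22 to 0.0072). In the intron columns the difference of responses between clones for Fen1 was 0.024. The cause was not tested. The intron alternative was not run for LG1 against EG1, because intron columns of EG1 appear to hold exonic reads of many genes, though not of all (35.4 to 42.5% of single-exon genes had intron counts, against 0.039 to 0.084% in LG1), and the share was 36.2 to 48.2% in the time course. All other counts of calls under the alternatives stayed within 1.5 times the count reported. All members passed the filter on low counts in the exon columns.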

Other observations

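Gins3 was listed at 0 in the intron columns of all 4 EG1 and all 10 time course libraries, while LG1 libraries held 145 to 250 intron counts and CGR8 libraries 98 to 357. Where intron counts were present, the log2 fold change after IAA was 0.60 ± 0.26 (SE) in CGR8, -0.31 ± 0.22 in LG1, -0.58 ± 0.42 in wtSRCAP and -0.51 ± 0.41 in cdSRCAP cells, with adjusted p of 0.92, 1.00, 0.61 and 0.73 (edgeR quasi-likelihood test). The signs were those of the exon columns in all 4.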
